A study of Sus scrofa with 21 samples.

Results

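Sucrase-isomaltase (SI), maltase-glucoamylase (MGAM) and its neighbour gene MGAM2 were followed as 3 genes grouped as alpha-glucosidases of the intestinal brush border. They were chosen by gene name from 18661 genes of the pig annotation and described together with their 8 annotated transcripts among 39105. MGAM2 was in the group by its name, and no value here shows that its product is a brush-border enzyme. All 3 genes were read in all 21 piglets. RNA sequencing had been performed on distal small intestine taken at euthanasia from Danish Landrace/Yorkshire piglets aged 24 to 25 days. The starch group (n = 11) had received a commercial milk replacer to which wheat had been added as a source of starch, and the control group (n = 10) the same replacer without it. All piglets thus shared the replacer, the breed and the age, and the labels give no sex, litter, dose of wheat or date. The comparison asks whether starch in the diet of a milk-fed piglet goes with a different RNA level of these genes. Where nothing says that piglets came from separate litters or pens, a p-value measures the spread between these piglets only.

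Dietary starch is first cut by amylase into short glucose chains, and the enzymes anchored in the enterocyte's apical membrane release the free glucose. SI carries a pair of catalytic sites that together split sucrose, isomaltose and the branch points and ends of starch fragments, and MGAM carries a related pair that splits maltose and longer linear chains. Both belong to glycoside hydrolase family 31, sit in the microvillus membrane and are textbook markers of mature villus enterocytes. In suckling mammals such as the rat, SI is low at birth and comes up around weaning. MGAM2 is a close relative of MGAM whose product is less well studied. In the RefSeq gene order of the pig assembly Sscrofa11.1, MGAM2 lies directly beside MGAM, whereas SI lies between OTOL1 and SLITRK3. The glucose set free is taken up by the sodium-coupled carrier SLC5A1, and fructose by SLC2A5.

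The files gave total expected counts of 7251368 to 8610458 per starch library and 6719264 to 8055374 per control library. The gene totals of SI, MGAM and MGAM2 were whole numbers within 0.05 of a count in 21 of 21 piglets, so no read had been divided in fractions between the neighbouring genes MGAM and MGAM2. The smallest total of any of these genes was 48 counts, for MGAM in starch 3. In marker genes of the tissue 3 piglets, starch 3, control 5 and control 8, stood apart from the other 18. The mean centred log2 level of 13 mature enterocyte genes (peptidases, lipid and amino acid uptake) was -6.14 in starch 3, -4.71 in control 5 and -5.02 in control 8, against -0.15 to 1.91 in the other 18. FABP6, the ileal bile acid binding protein that marks distal small intestine, was at 0.348 CPM (counts scaled to library size) in starch 3, 14.9 CPM in control 5 and 40.3 CPM in control 8, and at 234 CPM or more in the other 18. The score of 10 genes of all epithelial cells was within or just above the range of the 18 in the same 3 piglets (0.24, 0.09 and 0.63 against -0.52 to 0.61). Its genes did not move together. Over the 21 piglets their Pearson r with SI ran from -0.88 (KRT18) to 0.69 (GPA33), so this mean does not show that epithelial content was unchanged. In bulk tissue, fewer enterocytes and less RNA per enterocyte cannot be told apart, and most diet comparisons of the members are given with and without these 3 piglets.

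SI was the most abundant of the enzyme genes in most piglets. Its gene, ENSSSCG00000011735, had a median of 179 FPKM over the 21 piglets (fragments scaled by the authors for coding length and for depth), and 598 of 15871 genes with a median above 0 had a higher one. The gene of MGAM, ENSSSCG00000034639, had a median of 19.6 FPKM, with 5260 genes above it. The gene of MGAM2, ENSSSCG00000016487, had a median of 21.02 FPKM, with 5009 genes above it. The order of MGAM and MGAM2 was not a fixed one. Per coding length, 10 piglets (6 starch, 4 control) had SI above MGAM above MGAM2, and 8 piglets (4 starch, 4 control) had SI above MGAM2 above MGAM. In starch 3, control 5 and control 8 MGAM2 was the highest of all, followed by SI and then MGAM.

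The make-up of the summed FPKM shows the same change of order. SI held 30.3 to 87.3% of the sum in starch piglets and 11.95 to 87.9% in control piglets, with medians of 75.0% and 78.8%. MGAM held 3.49 to 35.4% in starch piglets (median 14.4%) and 4.00 to 27.3% in control piglets (median 9.59%). MGAM2 held 61.1% in starch 3, 78.5% in control 5 and 59.8% in control 8, against 4.38 to 19.2% in the other 18 piglets. The share of MGAM varied more than that of MGAM2 among those 18 piglets, where it ran from 3.49% in starch 1 to 35.4% in starch 4.

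**Figure D1:**
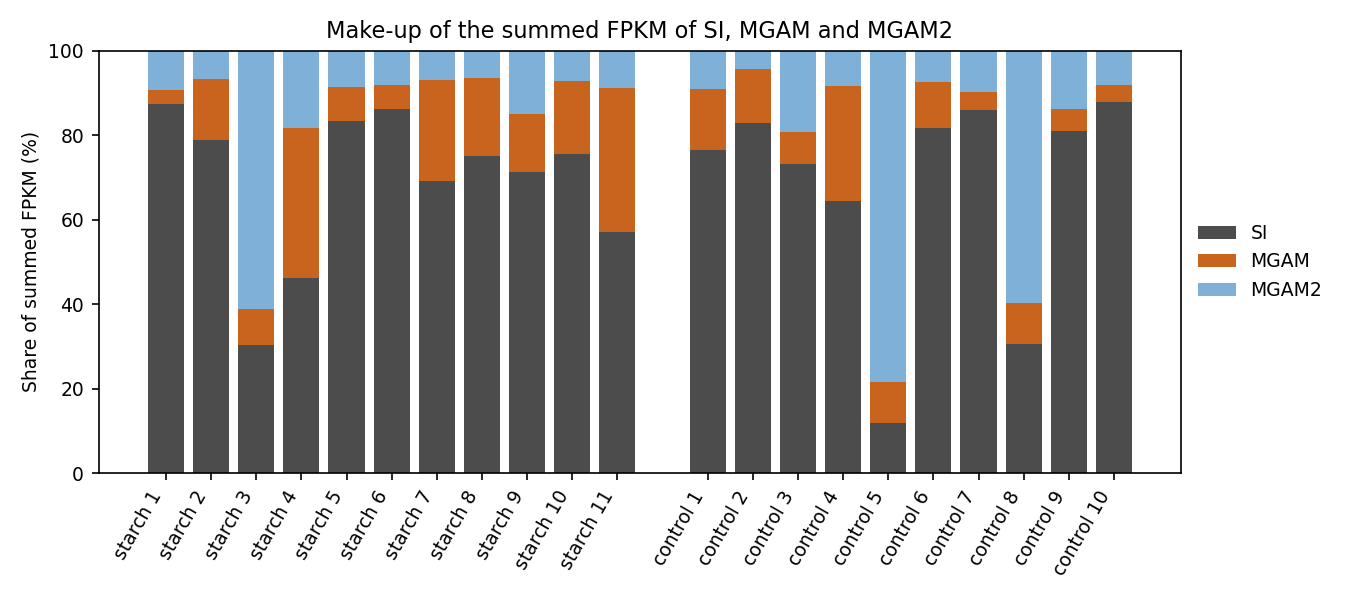
Share of the summed FPKM of SI, MGAM and MGAM2 held by each gene, in percent, 1 bar per piglet (11 starch bars on the left, 10 control bars on the right). SI is the largest part of 18 bars, down to 46.3% in starch 4, while MGAM2 takes 61.1%, 78.5% and 59.8% in starch 3, control 5 and control 8.

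The piglets differed widely in SI. SI was at 16.8 CPM in the lowest starch piglet, starch 3, at a median of 959 CPM and at 2140.3 CPM in the highest, starch 7. In control piglets it was at 12.7 CPM in the lowest, control 5, at a median of 504 CPM and at 1608 CPM in the highest, control 2. The diets overlapped over nearly the whole range, and the lowest values of both diets came from the 3 piglets that stood apart. Among the other 18 piglets SI spanned a 7.37-fold range, from 290.4 CPM in starch 4.

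MGAM was the most variable of the enzyme genes among those 18 piglets. It was at 5.56 CPM in starch 3, at a median of 255 CPM in starch piglets and at 820.4 CPM in starch 7. In control piglets the lowest value was 7.95 CPM, in control 8, the median 66.2 CPM and the highest 270.2 CPM, in control 2. Starch piglets 2, 4, 8, 10 and 11 lay close together between 255 and 303 CPM, control 2 lay among them, and the groups overlapped. Without the 3 piglets MGAM spanned a 29.1-fold range.

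MGAM2 varied least. It was at 45.0 CPM in starch 3, at a median of 121 CPM in starch piglets and at 275.9 CPM in starch 7, against a lowest value of 56.3 CPM in control 8, a median of 107 CPM in control piglets and a highest value of 197 CPM in control 9. In control 5, whose SI was the lowest of all, MGAM2 was at 108 CPM, within the range of the other 18 piglets (72.5 to 276 CPM). For MGAM2 the median of those 18 was 1.14 to 2.73 times the values in the 3 piglets that stood apart. For SI it was 42.7 to 74.2 times and for MGAM 13.7 to 28.5 times. MGAM2 thus fell far less than SI and MGAM where mature enterocyte genes were low, and which cells express it was not tested. Starch 7 was thus the highest of the 21 piglets for all 3 genes.

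**Figure D2:**
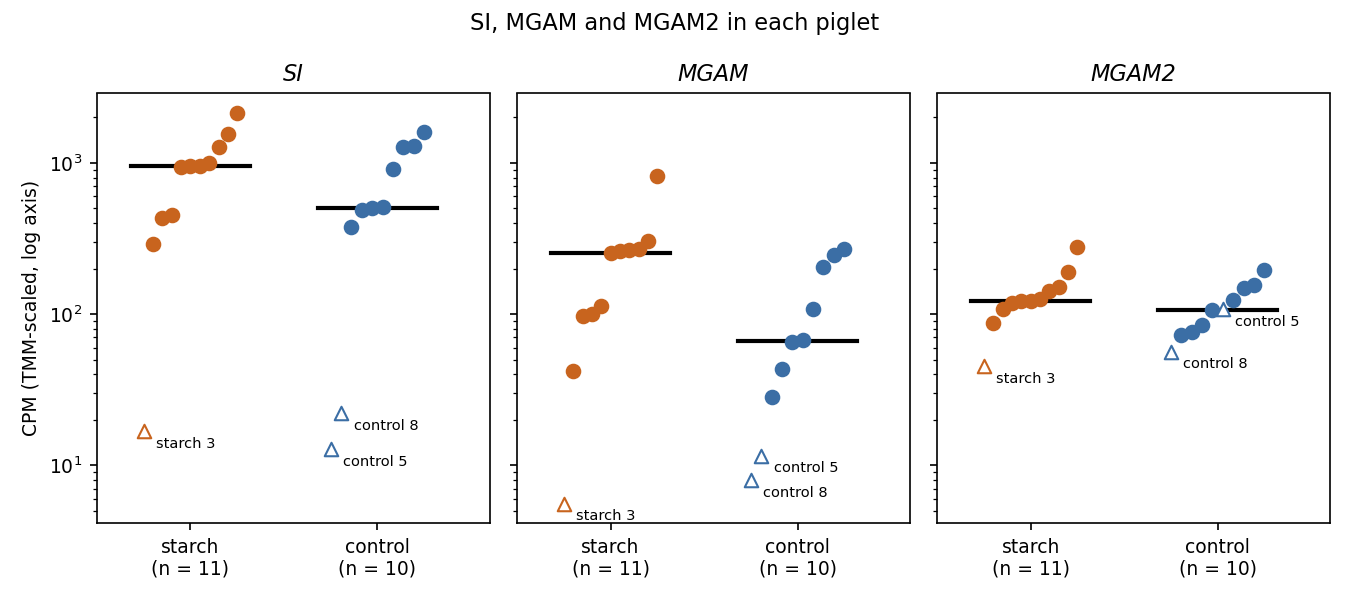
CPM of SI, MGAM and MGAM2 on a log axis, 1 point per piglet, 11 starch piglets left of 10 control piglets in each panel, with the group median as a line and the 3 piglets that stood apart as open triangles. The triangles lie far below all other piglets for SI (12.7 to 22.2 CPM) and MGAM (5.56 to 11.6 CPM) but not for MGAM2 in control 5.

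Set against the other genes, this spread was large for SI and MGAM and moderate for MGAM2. The standard deviation of log2 CPM over the 21 piglets was 2.15 for SI, 1.88 for MGAM and 0.61 for MGAM2, where the median of the 13127 tested genes was 0.45. Of those genes, 99.3% varied less than SI, 98.7% less than MGAM and 72.9% less than MGAM2. Over the 18 piglets the standard deviation was 0.84 for SI, 1.26 for MGAM and 0.50 for MGAM2, against a median of 0.41, and 93.7%, 98.4% and 66.4% of genes varied less. The position of MGAM near the top of this ranking was therefore the same with and without the 3 piglets.

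Neither SI, MGAM nor MGAM2 differed between the diets beyond the spread between piglets in edgeR's quasi-likelihood test. No gene did in this test (0 of 13127, 0%), and 174 genes had an unadjusted p below 0.05. The count was also 0 in DESeq2 (293 genes of 18630 unadjusted) and in voom with sample weights (268 of 13127 unadjusted). Each of these unadjusted counts was a smaller share of its genes than the 0.05 that chance alone gives on average. All 3 members had fitted fold changes above 0. MGAM averaged 231 ± 222 CPM in starch piglets and 105 ± 99 CPM in control piglets (SD, n = 11 and 10). Its log2 fold change, starch over control, was 1.14 (SE 0.64, 95% confidence interval -0.19 to 2.47), with an edgeR unadjusted p of 0.0898 and an adjusted p of 1.00 over all tested genes. The interval takes in no change as well as a log2 rise of 2.47.

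SI averaged 910.4 ± 608 CPM in starch piglets and 702 ± 551 CPM in control piglets, a log2 fold change of 0.37 (SE 0.64, interval -0.95 to 1.70; edgeR p = 0.565 unadjusted, 1.00 adjusted). MGAM2 averaged 135 ± 59 CPM in starch piglets and 113 ± 44 CPM in control piglets, a log2 fold change of 0.26 (SE 0.25, interval -0.26 to 0.77; edgeR p = 0.313 unadjusted, 1.00 adjusted). The interval was narrowest for MGAM2 and still allowed a log2 change of 0.77.

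Starch 7, highest for every member, moved these values. Without it the log2 fold change was 0.71 for MGAM, 0.16 for SI and 0.10 for MGAM2. The value of SI was 0.60 without control 2, 0.23 without control 5 and 0.23 without control 8. Without the 3 piglets that stood apart it was 0.98 for MGAM (interval -0.08 to 2.04; edgeR p = 0.0686 unadjusted), 0.20 for SI and 0.25 for MGAM2, with 0 of 13139 genes called by edgeR and 382 at an unadjusted p below 0.05.

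Levels relative to enterocyte content were read from a score of 10 genes of microvillus structure that hold no digestive enzyme, such as the actin bundlers VIL1 and ESPN and the adhesion proteins CDHR2 and CDHR5. Of these structural genes 2 of 10 were higher and 8 lower in starch piglets, with 0 called and a median log2 fold change of -0.03 (-0.20 without the 3 piglets), against 6711 of 13127 genes higher and a median of 0.00 over all tested genes. With this score as a term in the edgeR fit, the log2 fold change of MGAM was 1.23 (SE 0.50, interval 0.19 to 2.28; p = 0.0227 unadjusted, 1.00 adjusted) and that of SI 0.68 (SE 0.37, interval -0.10 to 1.45; p = 0.0828 unadjusted, 1.00 adjusted). MGAM2 was at 0.19 (SE 0.23). SI was at 0.35 and MGAM2 at 0.23 when the 3 piglets that stood apart were left out. Without starch 10 SI was at 0.41, and without starch 7 MGAM2 was at 0.047. With single piglets left out MGAM lay between 0.90 (without starch 7) and 1.53 (without control 4), at an unadjusted edgeR p of 0.00657 to 0.0671. Over the other settings, leaving out the 3 piglets among them, MGAM lay between 0.70 (replicate block with the score) and 1.33 (smooth muscle score as the term). The relation of MGAM to the structure score rested on the 3 piglets, with r = 0.71 over all 21 and -0.10 over the other 18. The interval of MGAM that leaves out 0 is from the fit that holds these 3 piglets. Without them, MGAM less the score differed by 1.14 (permutation p = 0.0751). Again 0 of 13127 genes (0%) were called by edgeR, and 309 had an unadjusted p below 0.05. Neither SI nor MGAM thus passed the threshold with this term in the fit. The score stands in for enterocyte content and need not take up all of it.

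**Figure D3:**
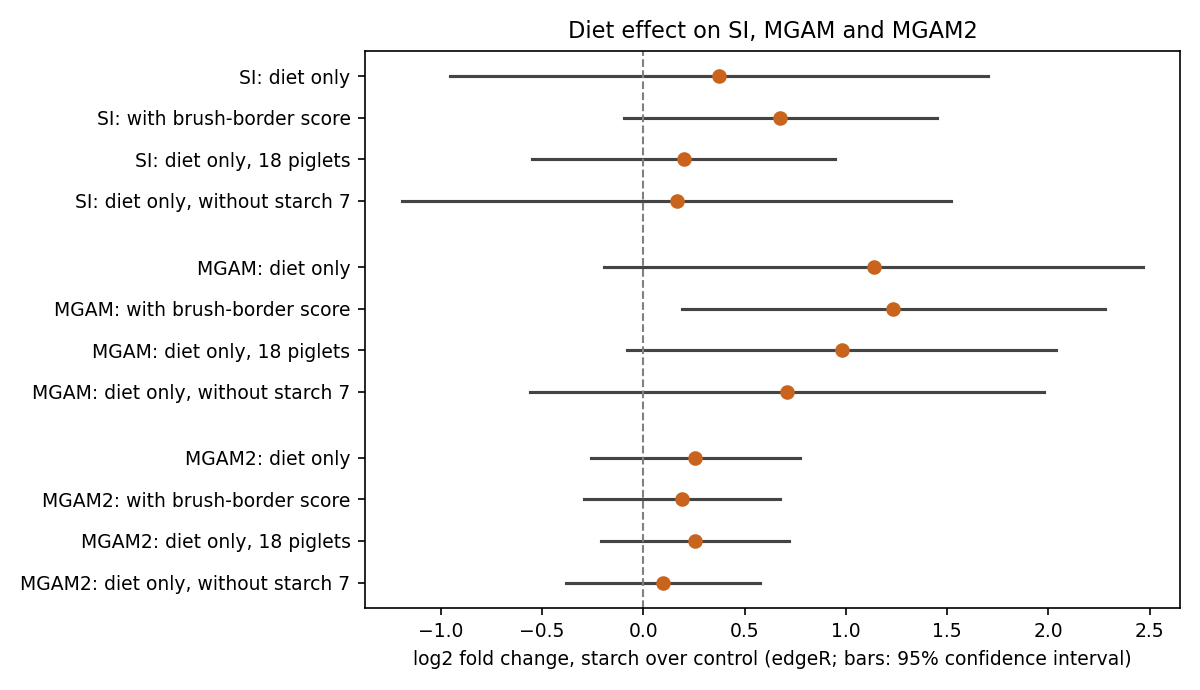
Log2 fold change of SI, MGAM and MGAM2, starch over control, from edgeR (points) with 95% confidence intervals (bars), for the fit with diet alone, with the brush-border structure score, without the 3 piglets that stood apart, and without starch 7. All 12 points lie above 0, and the interval leaves out 0 for MGAM with the structure score alone (0.19 to 2.28), which was not called after adjustment.

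Ratios within a library, which need no scaling between libraries, were compared as well. The FPKM of MGAM was 0.04 times that of SI in starch 1 and 0.80 times in control 5, the lowest and the highest ratios of all. The median ratio was 0.23 in starch piglets and 0.14 in control piglets. The mean log2 ratio was -2.31 ± 1.28 in starch piglets and -2.72 ± 1.35 in control piglets (SD, n = 11 and 10), a difference of 0.41 (two-sided permutation test with 100000 resamples, p = 0.478, adjusted over 3 ratios 0.478). Without the 3 piglets the difference was 0.79 (permutation p = 0.191), and with single piglets left out it lay between 0.22 (without control 10 or starch 4) and 0.68 (without control 5).

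The log2 level of MGAM less the structure score averaged 7.04 ± 1.45 in starch piglets and 6.02 ± 1.08 in control piglets, a difference of 1.02 (permutation p = 0.0867, adjusted 0.260). That of SI averaged 9.16 ± 1.24 in starch piglets and 8.56 ± 1.28 in control piglets, a difference of 0.60 (permutation p = 0.289, adjusted 0.434). Without the 3 piglets the difference was 1.14 for MGAM (permutation p = 0.0751) and 0.35 for SI (permutation p = 0.378), and for SI it was 0.34 without control 5 alone. All of these differences lay within the spread between piglets of 1 diet. In starch 3, control 5 and control 8 SI less the score was 6.41, 6.26 and 6.63, against 8.03 or more in the other 18. The score thus did not take up the whole fall of SI in these 3 piglets. MGAM less the score was 4.86, 6.12 and 5.18 there, within the range of the 18 (4.05 to 9.31). The genes of the score did not all move alike. Over the 21 piglets EZR had r = 0.24 with SI, against 0.83 (CDHR2) to 0.93 (VIL1) for the others.

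The transcripts of SI differed in coding length. ENSSSCT00000032326.2 spans 1547 codons, ENSSSCT00000039663.1 spans 1637 codons, and 3 further models (ENSSSCT00000012846.3, ENSSSCT00000055033.1 and ENSSSCT00000056713.1) span 1828 codons and had identical estimates in every piglet, so that they could not be told apart. The 1547-codon model held most of the SI signal. Its share of SI FPKM ran from 53.2% in starch 5 to 92.1% in starch 3 in the starch group (median 76.8%), and from 59.7% in control 2 to 90.9% in control 6 in the control group (median 74.9%). The share averaged 76.2 ± 11.6% in starch piglets and 73.9 ± 10.0% in control piglets, a difference of 2.32 percentage points (two-sided permutation test, p = 0.628, adjusted over 3 shares 0.806).

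The 3 models of 1828 codons together held 23.5 ± 11.1% in starch piglets and 25.9 ± 9.9% in control piglets. The 1637-codon model was listed in 8 of 21 piglets and reached at most 1.91%, in starch 5. Starch 3, control 5 and control 8 had the same leading model of SI, at 78.2 to 92.1%. The shares are the authors' estimates over models of the same gene, and how reads were divided among them is not given in the sources used here.

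**Figure D4:**
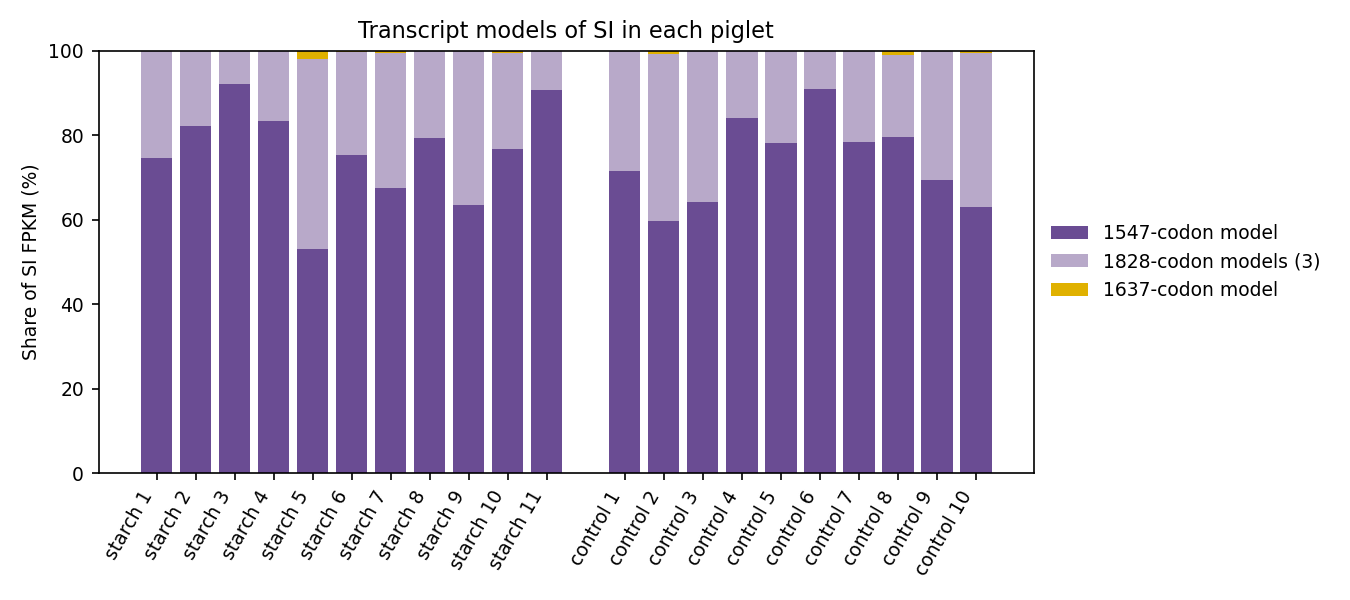
Share of SI FPKM, in percent, held by the 1547-codon model, the 3 identical 1828-codon models together and the 1637-codon model, 1 bar per piglet, 11 starch bars on the left and 10 control bars on the right. The 1547-codon model holds between 53.2% (starch 5) and 92.1% (starch 3) of every bar.

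MGAM had a pair of models of 1827 codons (ENSSSCT00000039107.1 and ENSSSCT00000062729.1) with identical estimates in every piglet, so no share could be read. MGAM2 had a single model of 2070 codons (ENSSSCT00000052165.1). In the transcript-level edgeR fit 0 of 22522 transcripts (0%) were called and 246 had an unadjusted p below 0.05. The log2 fold change, starch over control, was 0.43 for the 1547-codon model of SI, 0.31 for each 1828-codon model, 1.15 for each MGAM model and 0.26 for the MGAM2 model, and the 1637-codon model of SI did not pass the filter on low counts. Over the other 18 piglets the values were 0.24 for the 1547-codon model, 0.13 for each 1828-codon model, 0.99 for each MGAM model and 0.26 for the MGAM2 model.

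How the enzymes varied together depended on the 3 piglets. Since these lie in a cluster of their own, correlations are given over the other 18 piglets, with 24 relations tested and p-values from 100000 permutations adjusted over them. SI followed SLC5A1, the glucose carrier (Pearson r = 0.77, adjusted permutation p = 0.00264; Spearman rho = 0.80, adjusted permutation p = 0.00456). MGAM also followed SLC5A1 (r = 0.66, adjusted permutation p = 0.0312; rho = 0.63, adjusted permutation p = 0.0714). Without the 2 piglets farthest from the median of SLC5A1, r was 0.71 for SI (adjusted permutation p = 0.0514, which misses the threshold) and 0.46 for MGAM (adjusted permutation p = 0.567). Neither relation was thus called without those 2 piglets. Within the starch group r of SI with SLC5A1 was 0.85 and within the control group 0.72, and for MGAM the values were 0.61 and 0.73. Fitted over the diets, SLC5A1 had a log2 fold change of 0.26 (SE 0.50), and it was not called. Library depth was also among the 24 relations. Over the 18 piglets log2 depth had r = -0.08 with SI, -0.33 with MGAM and 0.22 with MGAM2, none past the threshold. Among these 18, r of MGAM with depth was -0.47 in starch piglets and -0.81 in control piglets (permutation p = 0.0235, adjusted 0.202).

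SI and MGAM were only loosely related across the 18 piglets (r = 0.32, adjusted permutation p = 0.578; rho = 0.34, adjusted permutation p = 0.461). SI and MGAM2 had r = 0.58 (permutation p = 0.0113, adjusted 0.0908; rho = 0.42, adjusted permutation p = 0.330) and MGAM and MGAM2 r = 0.28 (adjusted permutation p = 0.578; rho = 0.03, adjusted permutation p = 0.942), so that none of the member pairs passed the threshold. The microvillus structure score had r = 0.29 with SI (rho = 0.37), -0.10 with MGAM (rho = -0.06) and -0.16 with MGAM2 (rho = -0.11), with adjusted permutation p-values of 0.578, 0.783 and 0.714 for r. Over all 21 piglets the score had r = 0.91 with SI, 0.71 with MGAM and 0.47 with MGAM2, and these higher values come from adding the 3 piglets that stood apart.

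**Figure D5:**
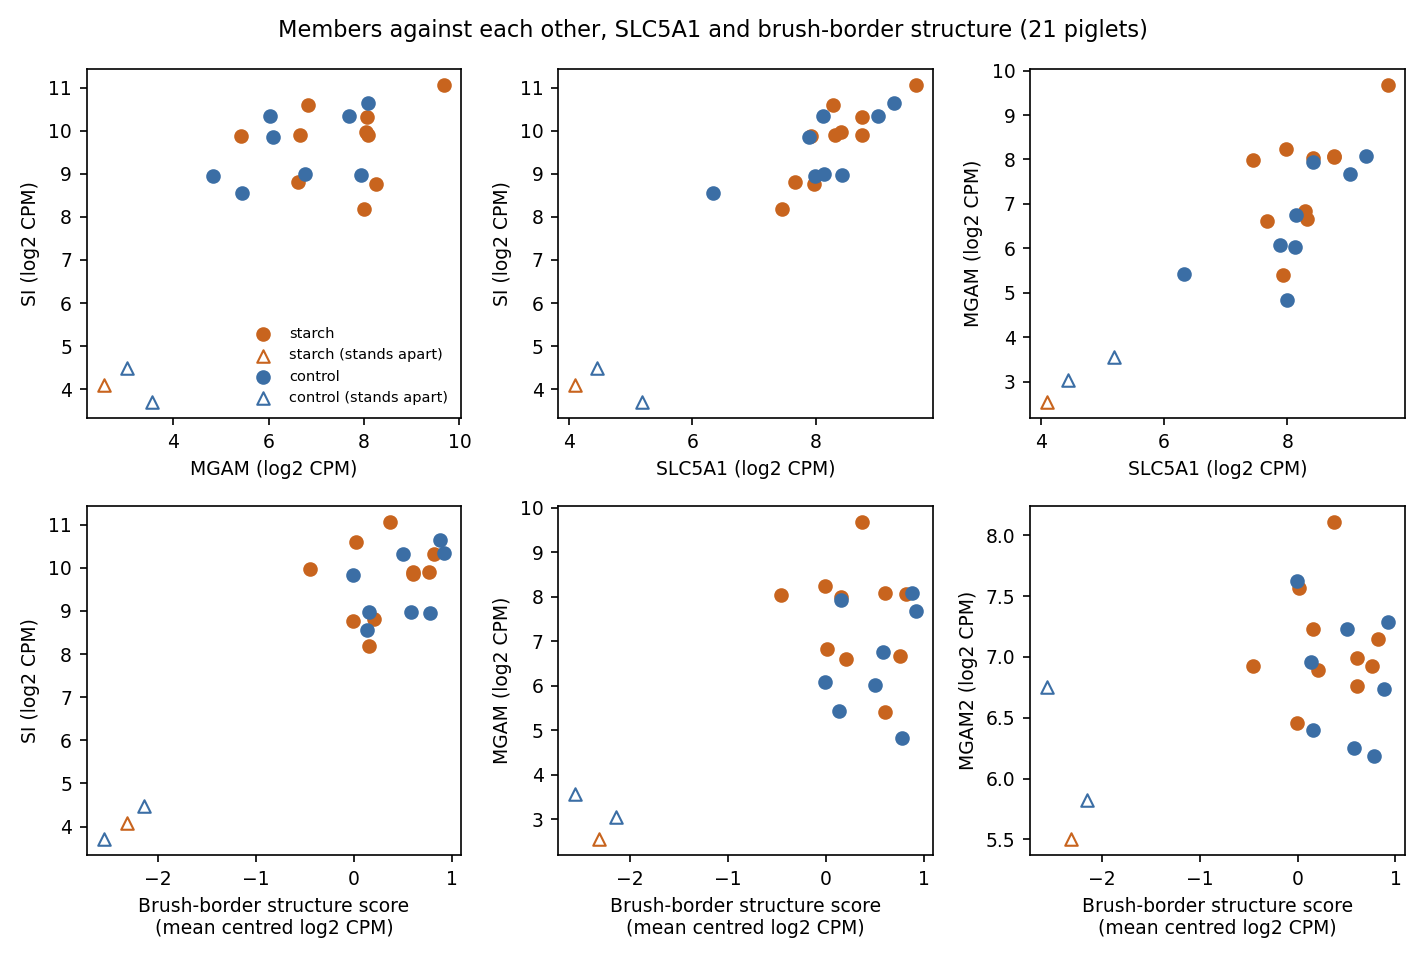
Log2 CPM of the members against each other, against SLC5A1 and against the brush-border structure score (mean centred log2 CPM), 1 point per piglet, starch piglets in orange and control piglets in blue, with the 3 piglets that stood apart as open triangles. The triangles lie apart from the 18 circles in every panel, and among the 18 circles SI follows SLC5A1 (r = 0.77) more closely than MGAM (r = 0.32) or the score (r = 0.29).

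The genes whose pattern was most like that of SI over all 21 piglets included carriers and enzymes of the absorptive enterocyte. The 8 highest Pearson correlations with log2 CPM of SI included ABCG5 (r = 0.96) and ABCG8 (r = 0.95), the pair of sterol exporters of the apical membrane, GBA3 (r = 0.96), a cytosolic beta-glucosidase, SLC13A1 (r = 0.95), a sulfate carrier, and ASXL3 (r = 0.95), a chromatin protein. The lowest correlations included PLAUR (r = -0.94), the urokinase receptor, and CAPN2 (r = -0.91), a calpain protease. Over 21 points of which 3 stand apart, such values mostly describe the 3 piglets, and all points share their library with SI.

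For MGAM the 8 highest correlations over the 21 piglets held SLC5A1 (r = 0.88), FAXDC2 (r = 0.86), SLC28A2 (r = 0.85), a nucleoside carrier, the membrane proteins TM4SF5 (r = 0.85) and TM4SF20 (r = 0.83), SLC2A7 (r = 0.84), a hexose carrier, and 2 genes without a symbol. The lowest were FLT1 (r = -0.83), a receptor of vascular growth factor, TGM3 (r = -0.83), a transglutaminase, SH3GL1 (r = -0.81), an endocytosis adaptor, and ACSL1 (r = -0.81), a fatty acid ligase. These are descriptions with no test.

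Among the carriers and enzymes that handle the freed sugars, none was called by diet (0 of 6). SLC2A2, the basolateral glucose carrier, had a log2 fold change of 0.42 (SE 0.57), KHK, which phosphorylates fructose, of -0.34 (SE 0.43), SLC2A5 of -0.14 (SE 0.33) and TKFC of -0.01 (SE 0.29). With SLC5A1, 2 of 6 were higher and 4 lower, with a median of -0.08. Over the 18 piglets their correlations with SI ran from 0.31 to 0.77 (median 0.54), and those with MGAM from 0.05 to 0.66 (median 0.11). The corresponding median over all tested genes was -0.0021 for SI and -0.013 for MGAM.

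The enzymes of the other family 31 genes tested act inside the cell, and none of these genes was called by diet. GANAB, the catalytic subunit of glucosidase II of the endoplasmic reticulum, averaged 219 ± 27 CPM in starch piglets and 235 ± 23 CPM in control piglets. GAA, the lysosomal acid glucosidase, averaged 59.1 ± 8.8 CPM in starch piglets and 61.7 ± 15.9 CPM in control piglets. GANC averaged 10.8 ± 5.2 CPM in starch piglets and 9.16 ± 4.73 CPM in control piglets, and MYORG 24.6 ± 14.9 CPM in starch piglets and 23.8 ± 13.0 CPM in control piglets. Of these 4 genes 2 were higher and 2 lower, 0 were called, and the log2 fold changes lay between -0.10 and 0.23. Trehalase (TREH), the brush-border enzyme for trehalose, never exceeded 31 counts in a piglet and was left out by the filter on low counts.

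Transcription factors known to act on the SI promoter or on intestinal identity were not called by diet either. Of 13 tested factors 10 were higher and 3 lower in starch piglets, with 0 called and a median log2 fold change of 0.06. Without the 3 piglets that stood apart the median was -0.07. CDX2, which binds the SI promoter, averaged 98.6 ± 22.2 CPM in starch piglets and 94.9 ± 35.3 CPM in control piglets. GATA4, a factor of the proximal small intestine in the mouse, averaged 9.32 ± 4.34 CPM in starch piglets and 7.69 ± 3.13 CPM in control piglets. MLXIPL, the glucose-sensing factor ChREBP, averaged 60.8 ± 27.7 CPM in starch piglets and 48.5 ± 25.2 CPM in control piglets (log2 fold change 0.33, SE 0.41). PRDM1, which holds back adult enterocyte genes in the suckling mouse, averaged 57.2 ± 34.9 CPM in starch piglets and 55.9 ± 30.1 CPM in control piglets.

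Across the 18 piglets the factors lay differently beside each enzyme gene. With SI, GATA4 had r = 0.64 and MLXIPL 0.54, whereas CDX2 had -0.20. With MGAM, GATA4 had 0.14 and MLXIPL -0.01, whereas PRDM1 had -0.68 and GATA6 -0.50. MGAM2 had its highest value with KLF5 (0.71), a factor of dividing intestinal epithelium, followed by GATA4 (0.54). The 5th and 95th percentiles of r over all tested genes were -0.42 and 0.41 for SI, -0.48 and 0.46 for MGAM, and -0.43 and 0.45 for MGAM2, and 18 piglets that share their libraries make such values descriptions only.

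Markers of other cells in the tissue were read beside the members. All 4 tested B-cell genes of 7 listed had fold changes above 0, starch over control (median log2 fold change 1.70, 0 called). The B-cell score was 3.99 in starch 9 and 4.39 in starch 10 and at most 0.43 in the other starch piglets, and its median was -0.67 in starch piglets and -0.32 in control piglets. All 5 tested goblet cell genes of 7 listed had fold changes below 0 (median -0.57, or -0.33 without the 3 piglets, 0 called). Over the 18 piglets the B-cell score had r = -0.28 with SI, 0.17 with MGAM and -0.25 with MGAM2, none past the threshold, and the smooth muscle score -0.12, 0.29 and 0.24. The macrophage score was 2.04 in starch 3, 1.50 in control 5 and 1.49 in control 8, against -1.29 to 0.91 in the other 18, and the goblet score 0.91, 1.31 and 2.10 against -0.85 to 1.12. In the same order the smooth muscle score was 0.84, 0.58 and 1.32 against -0.997 to 0.70, and the score of crypt and dividing cells 0.58, 0.77 and 0.92 against -0.90 to 0.65. The part of these cell types in the low SI and MGAM of the 3 piglets was not tested.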

How the data were processed

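RNA was measured in distal small intestine of 21 piglets (11 starch, 10 control, as the sample titles name them). Per the labels' protocols, miRNAeasy kits gave total RNA, which the sequencing provider handled in its standard way. HISAT and DESeq2 are named in the submitters' processing notes with neither version nor role. The sources used here give no counting program, strand setting or genome build. Per the file headers, the authors deposited for each transcript an expected count (an estimated count, not normalized) and an FPKM value scaled for length and depth. Nearly all deposited lengths were multiples of 3 (99.96 to 99.97% per file) and are taken as coding lengths. Transcripts not listed for a piglet were taken as 0.

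Expected counts were summed per gene and rounded, and 14276 of 18661 genes (76.5%) matched a symbol. Diet was tested with edgeR 4.0.16 (R 4.3.3), quasi-likelihood, TMM scaling and filterByExpr (minimum count 10, total 15), over all tested genes, with Benjamini-Hochberg adjustment and a threshold of 0.05. CPM values are TMM-scaled, and log2 CPM has a prior count of 2. A list score is the mean over genes of log2 CPM centred over the 21 piglets. Ratios, transcript shares and correlations used two-sided permutation tests with 100000 resamples (scipy 1.17.1), whose smallest possible p is 1e-05. The edgeR test was checked on simulated counts.

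Members and gene lists were chosen with earlier results of these data known. The genes named for likeness are the 8 highest and 4 lowest correlations with SI and with MGAM over the 21 piglets, and those named in the closing section for other patterns were chosen after their values were seen. Correlations had been planned over all 21 piglets, and since 3 piglets form a cluster of their own the values over the other 18 are reported, with those over 21 as an alternative. Starch and control replicate numbers were given by the titles with no word on pairing. The alternatives were RLE and upper-quartile scaling, DESeq2 1.42.0, voom and limma 3.58.1 on log2 FPKM, other filters, mitochondrial genes left out, other content scores as covariates, a replicate block and leaving out piglets. The number of piglets and the spread between them, more than counting error, set the precision for genes of these totals (48 counts or more). Some genes are not reported here. Figures were drawn with matplotlib 3.10.9.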

Additional observations from a re-analysis of the deposited data

Results flagged for a closer look

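Among 18 quantities of the members examined in the 10 control piglets, 3 had a highest piglet far from the next. The distance is one that chance gives in about 5% of groups of normally distributed values. Ratios and shares need not be distributed in that way, and the 18 quantities are related to each other, so the rate is a rough guide only. The 11 starch piglets were not examined in this way. In control 5 the FPKM of MGAM was 0.798 times that of SI, and the next highest control piglet had 0.425. In the same piglet the FPKM of MGAM2 was 6.57 times that of SI, and the next highest control piglet had 1.96. Control 5 is among the 3 piglets with low enterocyte genes, and its SI was at 12.7 CPM. In control 4 MGAM held 27.3% of the summed FPKM of SI, MGAM and MGAM2, and the next highest control piglet had 14.4%. Starch 4 at 35.4% and starch 11 at 34.3% were higher still.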

How the results depend on the processing

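The fold changes of SI, MGAM and MGAM2 stayed above 0 and uncalled under all 34 alternatives of the diet fit and all 27 of the fit with the structure score, and 0 genes were called under each. MGAM ranged from 0.71 (without starch 7) to 1.41 (without control 2) over single piglets left out and from 0.90 to 1.29 over the other settings. SI ranged from 0.16 to 0.60 over single piglets left out and up to 0.70 in limma on log2(FPKM + 0.1), and MGAM2 from 0.10 to 0.38. With the structure score replaced by another covariate, SI ranged from 0.29 (epithelial score) to 1.03 (smooth muscle score). The replicate block gave 0.90 for MGAM, 0.52 for SI and 0.29 for MGAM2, and with the score 0.70, 0.52 and 0.24. For the transcripts it gave 0.58 for each SI model tested, 0.91 for MGAM and 0.29 for MGAM2. Same-numbered starch and control piglets correlated from -0.34 to 0.48, over 0.1 in 4 of 10 pairs, and 1 starch piglet matched its own number best. These correlations over all tested genes cannot show whether same-numbered piglets shared a litter or a batch.

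The difference of MGAM over the structure score ranged from 0.79 (without starch 7, permutation p = 0.163) to 1.24 (without starch 1, permutation p = 0.0336) over single piglets left out. It also passed an unadjusted threshold without starch 3 (1.24) and without control 4 (1.21). The difference of SI over the score ranged from 0.34 (without control 5) to 0.87 (without starch 3). Over the mature enterocyte score the difference was 0.54 for SI (permutation p = 0.130) and 0.96 for MGAM (permutation p = 0.139). Over the epithelial score it was 0.79 for SI (permutation p = 0.449) and 1.20 for MGAM (permutation p = 0.166). Over VIL1 alone it was 0.65 for SI (permutation p = 0.241) and 1.07 for MGAM (permutation p = 0.0508).

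Correlations moved most, and the cause was not tested beyond the choice of piglets. Over all 21 piglets r was 0.80 for SI with MGAM, 0.67 for SI with MGAM2, 0.60 for MGAM with MGAM2, 0.91 for SI with the structure score, 0.71 for MGAM and 0.47 for MGAM2 with it, and 0.62 for MGAM2 with SLC5A1. Over 21 without the 2 farthest piglets it was 0.61 for SI with MGAM, and with the structure score 0.78 for SI, 0.47 for MGAM and 0.33 for MGAM2. Over 18 without the 2 farthest it was -0.30 for MGAM with MGAM2, 0.71, 0.46 and -0.026 for SI, MGAM and MGAM2 with SLC5A1. In starch piglets it was 0.61 for MGAM with SLC5A1 and 0.048 for MGAM2 with the score. In control piglets it was 0.72, 0.73 and -0.048 for SI, MGAM and MGAM2 with SLC5A1 and 0.25 for MGAM with the score. On log2 FPKM it was 0.60 for MGAM with SLC5A1. Of 24 relations 2 passed over 18 piglets and 12 over 21.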

Other observations

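Among the 18 piglets without starch 3, control 5 and control 8, each member had its own nearest genes. The genes named here were chosen after their values were seen, over piglets that share their libraries, and carry no test. MGAM2 had its highest Pearson correlations with TMEM236 (r = 0.83), VSIG10 (r = 0.80) and KCNE3 (r = 0.80), a potassium channel subunit of epithelial chloride secretion, where the 95th percentile over 13126 genes was 0.45. Its 5 goblet cell genes had r between -0.70 and -0.01 (median -0.53). SI had its highest with GDA (r = 0.82), a guanine deaminase, SLC5A1 (r = 0.77), ASXL3 (r = 0.77) and ABCG5 (r = 0.76). The values of the goblet cell genes with SI lay between -0.61 and -0.24 (median -0.41). MGAM had its highest named values with SPR (r = 0.80), a reductase of biopterin synthesis, and IL17B (r = 0.74).

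The log2 ratio of MGAM to SI went with genes of macrophages and T cells over the same 18 piglets. Its highest values included STING1 (r = 0.85), a sensor of cytosolic DNA signals, CD14 (r = 0.83), a receptor of bacterial lipopolysaccharide, and SLA-DMB (r = 0.82), which loads class II antigen. All 6 macrophage genes had r between 0.63 and 0.81 (median 0.72) and the 5 T-cell genes between 0.20 and 0.61 (median 0.60), where the 95th percentile over 13127 genes was 0.58. The 4 B-cell genes had r between 0.23 and 0.42 (median 0.37), all below that percentile. Of the macrophage genes, CD68 had 0.81 and CSF1R 0.72. Separately, the macrophage genes had a median r of -0.27 with SI and 0.55 with MGAM. At the other end stood SLC25A15 (r = -0.86), a mitochondrial ornithine carrier. The 6 genes listed for the suckling enterocyte had r between -0.71 (DAB2) and 0.19 (FCGRT), with a median of -0.35. Of the macrophage genes 3 of 6 were higher in starch piglets and 0 were called, and their part in the ratio was not tested.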
